A study of Mus musculus with 2 samples.

Results

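The regions described here are CTCF ChIP-seq peaks of newborn mouse lung. They were the stronger ones among peaks in neither list kept by the authors' filter on the irreproducible discovery rate (IDR). Of 299903 peaks called on both replicates pooled (chromosomes 1 to 19 and X), 178996 had a summit more than 2000 bp from every summit of the authors' optimal and conservative IDR lists. The members are the 44749 of these, 1 in 4, with the highest pooled peak signal. They were selected on measured values, namely the pooled signal and the absence from the IDR lists, so their signals and their agreement between replicates are given as descriptions. Sequence, repeats and gene annotation were not used directly. The required distance from listed sites is a choice on position, and it bears on the values at promoters and on distances.

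The study measured CTCF binding in lung tissue of mice of strain B6NCrl on the day of birth (age 0 day, sex not collected). There was 1 group of 2 replicates with no second tissue or treatment. The labels give 1 biosample and 1 donor for the 2 replicates, so their spread may be technical only. Peak lists hold no expression values, so the tissue could not be checked by its marker transcripts, and the number of reads is unknown because the lists carry none.

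CTCF is a zinc finger protein that reads a long asymmetric DNA motif and halts cohesin as it extrudes chromatin loops, which makes it a marker of loop anchors and domain boundaries. IDR ranks the peaks of replicates together and keeps those whose ranks are reproducible. In mice, copies of the B2 family of short interspersed repeats carry a CTCF motif, and the spread of these repeats has placed many CTCF sites in the genome. The peaks that fall short of a reproducibility threshold are usually discarded, although a ChIP-seq list has no natural gap between bound and unbound sequence.

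Member signals ran from 9.30 to 283, with a median of 11.9, against a median of 76.2 in the optimal list of 64732 sites. The last 3 members inside the limit, in introns of Wwox and Nfia and at the promoter of Barhl2, had signals of 9.30165, 9.30163 and 9.30149. The first 3 peaks outside it, in an intron of Tbc1d4 and near Washc3 and Ier5, had 9.30149, 9.30139 and 9.30135. Members over 20 numbered 2372 (5.30%), those over 30 numbered 138, and those over 100 numbered 2. Of the optimal sites, 264 (0.408%) had a signal under the lowest member and 430 (0.664%) one under the member median. The ranges overlapped, with 8507 optimal sites between the lowest member and the 99th percentile of members, 26.1. The median −log10 of the q-value was 1.49 in members, with a first quartile of 1.02 and a minimum of 0.737.

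The sequences below show what the core looked like in members of different kinds. All are 30 bases from GRCm38 (mm10), with the strand given, and capitals mark the bases that fit the 12-base core of the CTCF motif. The first pair are the members of highest signal, both between genes.

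chr1:195241570-195241599, plus strand, 64865 bp from a start site of Cr2: aacgtgtcaCCACTAGGTGtCgcccgacaa

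chr19:61199545-61199574, plus strand, 2638 bp from a listed site: aacgagtcaCCACTAGGTGtCgcccgacaa

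The next sequences are strong members whose core had no mismatch, in unmasked sequence (introns of Cacna2d3 and Nav2) and in sequence that is soft-masked as a repeat (an intron of Creb5, and intergenic sequence near Kcnmb4 and Pdyn).

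chr14:28988344-28988373, minus strand, Cacna2d3: gaaatctaaCCAGCAGGGGGCtgtttttct

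chr7:49288869-49288898, plus strand, Nav2: tccccctcaCCACCAGATGGCtggagagcc

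chr6:53602024-53602053, plus strand, Creb5: acctgctgcCCAGTAGAGGGCatcagatcc

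chr10:116481152-116481181, plus strand, Kcnmb4: tcagacacaCCAGCAGAGGGCgtcagatct

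chr2:129729807-129729836, plus strand, Pdyn: acttggaggCCAGCAGAGGGCatttgatcc

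The last sequences have 1 mismatch and the bases that follow the core in these repeats (beyond Pex11g and at the promoter of Dlg1), 1 mismatch without them (the promoter of Msrb1), or no core (the summit at the promoter of Fras1).

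chr8:3469019-3469048, plus strand, Pex11g: tcagatgcaCCAGaAGGGGGCatcagatct

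chr16:31753612-31753641, minus strand, Dlg1: ccagggaggCCAGaAGAGGGCatcagatta

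chr17:24737399-24737428, plus strand, Msrb1: gatgtcagtCCtCTAGAGGGCagggctgtg

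chr5:96374344-96374373, plus strand, Fras1: cgcggggacccgcctcggccgatgctacac

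The peaks at Creb5, Kcnmb4, Pdyn, Pex11g and Dlg1 have similar bases after the core, although they lie on different chromosomes. The peak at Creb5, a CRE-binding transcription factor, had a signal of 29.8 in the pooled list, 11.04 in replicate 1 and 16.8 in replicate 2. At Cacna2d3, a subunit of voltage-gated calcium channels, the values were 32.3, 8.94 and 23.9. At Kcnmb4, a regulatory subunit of a potassium channel, they were 28.3, 8.995 and 19.2. In all 3 the replicate 2 value was higher, whereas replicate 1 was the higher one at 55.6% of the members with a peak in both.

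The CTCF core was found in about 1 member in 5. With at most 1 mismatch, on either strand and within 50 bp of the summit, 8223 of 44749 members held it (18.4%, 95% Wilson interval 18.0% to 18.7%). In windows of the same length 1000 bp to either side the share was 0.857% (767 of 89498), a difference of 17.5 percentage points (95% Newcombe interval 17.2 to 17.9). All intervals here cover counting error over peaks only, since peaks are not replicates of a condition. The next 44749 peaks by signal held the core in 6.78% and the lowest 44749 in 2.92%. In the optimal list, cut into 4 equal groups by signal, the core was in 70.2%, 53.3%, 40.2% and 29.6% from the highest group to the lowest. The member share was 11.2 points below that of the lowest optimal group (difference −11.2, bounds −11.997 and −10.4). The share depends on how the core is defined, being 1.54% with no mismatch, 41.7% with up to 2, and 12.2% in a window of 51 bp.

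Within the members the core share followed the signal without a break. The 4475 members with the highest signals (median 20.2) held it in 30.2% (28.9% to 31.6%), and the 4474 with the lowest (median 9.50) in 9.88% (9.04% to 10.8%). Each of the 10 groups of this size was lower than the one above it, although the intervals of neighbours often overlapped.

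**Figure D1:**
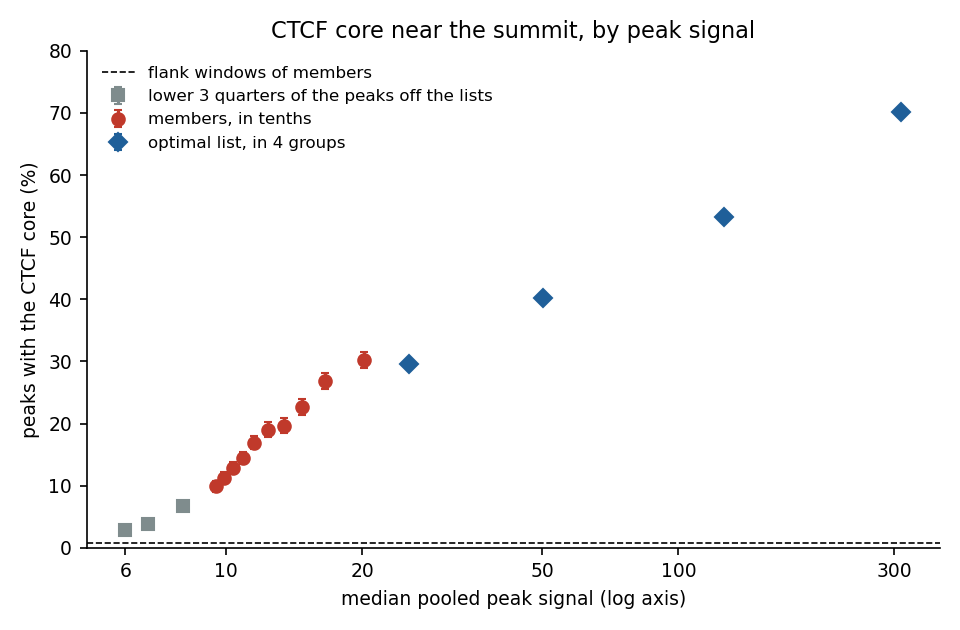
Share of peaks with the CTCF core (percent, with 95% Wilson intervals) against the median pooled signal of each group on a log axis, for the lower peaks off the IDR lists (squares), members in 10 groups (circles) and the optimal list in 4 groups (diamonds). The highest of the 10 member groups, at 30.2%, is level with the lowest optimal group at 29.6%, and the dashed line marks 0.857% in the flank windows.

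Members and optimal sites in the same ranges of pooled signal were set side by side, with ranges chosen after the values were seen. Between 15 and 20 the core was in 26.5% of 7955 members and 24.0% of 2585 optimal sites, a difference for optimal minus members of −2.56 points (−4.45 to −0.627). Between 20 and 25 it was in 31.4% of 1757 members and 29.2% of 4443 optimal sites, a difference of −2.18 points (−4.75 to 0.343). Between 25 and 30 it was in 30.6% of 477 members and 31.5% of 4379 sites, a difference of 0.929 points (−3.56 to 5.13). The intervals of the upper ranges, from 20, include 0, which does not show the groups to be alike. Below 15 the few optimal sites held the core less often than members did, 8.43% of 261 sites against 20.4% of 11769 members between 12 and 15, and 38.7% of those sites lay at promoters against 11.2% of the members. The replicates, which the rule used, were further apart in members than in optimal sites at the higher signals only. Their median absolute log2 ratio was 0.851 in members and 0.506 in optimal sites between 20 and 25, and 0.536 in both between 12 and 15. Promoters held 11.9% of members and 21.4% of optimal sites between 15 and 20. They held 14.5% and 19.4% between 20 and 25, and 18.0% and 17.9% between 25 and 30. Signals were not equal within a range, with medians of 16.7 in members and 18.4 in optimal sites between 15 and 20. The part of promoters and of signal in these differences was not tested.

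Cores of members lay less close to the summit than those of optimal sites. The middle of the core was within 20 bp of the summit in 66.4% of member cores, 90.1% of optimal cores and 45.8% of cores in flank windows. Exact cores made up 8.47% of the member cores with a single best strand, 10.2% of those in the lowest optimal group and 25.9% of those in the whole optimal list.

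Repeats held a large part of the member cores. The reference marks a summit as repeat by lower-case letters (soft masking), and 10758 members (24.0%) had such a summit, close to the 24.6% of their flank windows. The core was in 40.1% of these members (4309, interval 39.1% to 41.0%) and in 11.5% of the 33991 others (11.2% to 11.9%), a difference of 28.5 points (27.6 to 29.5). Masked summits were thus under 1 in 4 of the members and held more of the cores than unmasked ones did, 4309 against 3914. In the flank windows the core was in 1.48% of masked and 0.655% of unmasked windows. In the optimal list, masked summits made up 7.87%, 19.6%, 25.6% and 24.97% from the highest signal group to the lowest. Members were 16.2 points above the highest of these groups (15.6 to 16.7) and slightly below the lowest (difference −0.930, bounds −1.71 and −0.158).

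Many member cores shared bases beyond the core itself. Over masked and unmasked members together, the most frequent base at each of the 9 positions after the core spelled ATCAGATCC. The 9 before it spelled TCAGACACA. As background, this is the sequence around the CTCF motif in the B2 consensus. In the lowest optimal group the most frequent bases after the core were the same 9. The whole optimal list differed from them only at position 14, where C was most frequent. The files and the reference name no repeat families, so the 9 bases after the core are used here as a marker and called the tail. It was chosen after the member sequences were seen, so it describes them and supports no claim of its own. With at most 2 mismatches in 9, the tail followed 2797 of the 8121 member cores that had a single best strand (34.4%, interval 33.4% to 35.5%). It followed 60.02% of the cores at masked summits and 6.29% of those at unmasked ones.

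The tail was most common after the cores of weak peaks. It followed 3.42% of cores in the highest optimal group, 14.02% and 23.6% in the next ones, 30.3% (29.0% to 31.6%) in the lowest, 34.4% in members and 36.5% (34.8% to 38.3%) in the next 44749 peaks. Members without the tail still gained cores over weaker peaks, since cores without it were in 12.1% of all members, 4.33% of the next 44749 peaks and 20.7% of the lowest optimal group. Tail-bearing members had a median signal of 13.2 (9.31 to 43.8), other members with a core 13.4, and members with no core 11.7. A peak in both replicates was present for 66.5% of tail-bearing members, 67.9% of other members with a core and 56.0% of members with none.

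**Figure D2:**
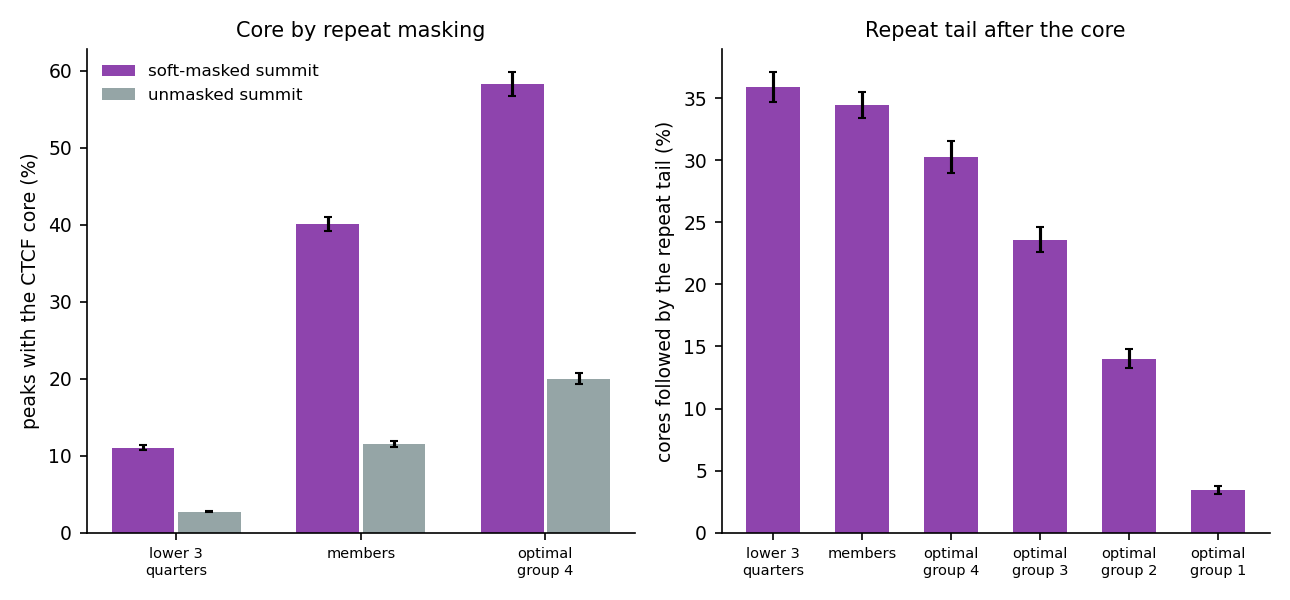
Left, share of peaks with the CTCF core (percent) at soft-masked and unmasked summits of the lower peaks, the members and the lowest optimal group; right, share of cores followed by the 9-base tail (percent) in the same groups and the stronger optimal groups. Bars have 95% Wilson intervals; the core is 40.1% at masked and 11.5% at unmasked member summits, and the tail falls from 34.4% in members to 3.42% in the highest optimal group.

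Only some copies in the genome had a peak. Chromosomes 1 to 19 and X held 215590 cores with at most 1 mismatch, of which 43223 had the tail, and 98.3% of those with it were soft-masked. Among cores with the tail, 5102 (11.8%) lay within 50 bp of a summit of either IDR list, 2995 (6.93%, interval 6.69% to 7.17%) of a member and 2357 (5.45%) of a lower peak, and 31513 (72.9%) were near no pooled peak. Among the 172367 cores without it, 16.8% were near a listed site and 3.33% (3.25% to 3.42%) near a member. Copies whose core had no mismatch were few, 921, and 46.9% of these were near a listed site and 12.6% near a member. How uniquely reads map to such copies was not tested.

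The mismatch of imperfect cores fell mostly at position 5, counted from the 5′ end of the core. Of 7433 members with 1 mismatch, 4258 had it there (57.3%, interval 56.2% to 58.4%), against 41.1% of optimal cores, 55.6% of those in the lowest optimal group and 36.8% of those in flank windows. Split by the tail, the share was 97.5% in members with it and 34.5% in members without it, and split by masking 88.9% and 19.6%. The base found at position 5 was A in 96.98% of the tail-bearing cores with a mismatch there. Positions 2 and 8 took 0.605% and 0.955% of the mismatches of members, and 4.55% and 2.54% of those in flank windows. In unmasked sequence the share at position 5 was 19.6% in members and 17.5% in the optimal list.

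**Figure D3:**
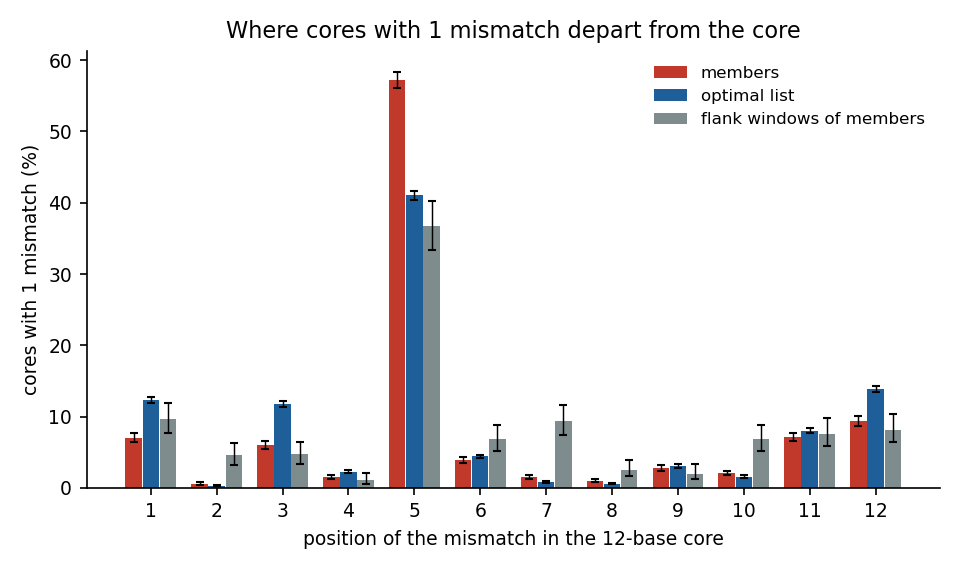
Position of the single mismatch in the 12-base core (x axis, from the 5′ end) as a percentage of cores with 1 mismatch, for members, the optimal list and flank windows of members, with 95% Wilson intervals. Position 5 takes 57.3% in members, 41.1% in the optimal list and 36.8% in flank windows.

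After the core, the CpG formed by a C at position 12 and a G at position 13 was found in 16.8% of member cores, 19.3% of cores in the lowest optimal group, 28.4% of those in the whole optimal list and 10.2% of those in flank windows. It was 11.6 points rarer in member cores than in all optimal cores (difference −11.6, bounds −12.6 and −10.7) and 6.51 points more common than in cores of flank windows (4.02 to 8.64). The tail has an A at position 13, and it followed 34.4% of member cores, 30.3% of those in the lowest optimal group and 14.6% of all optimal cores. The part of the tail in these differences was not tested. CpG is the pair at which mammalian DNA is methylated, but no methylation was measured here.

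Motifs of other factors were searched on both strands with no mismatch, and may overlap the core. Of 18 motifs, 11 were more common in members than in their flank windows, with an interval of the difference above 0. Members are richer in GC than their flank windows (median 50.5% against 45.5%), and the part of GC in these differences was not tested. The largest difference was for the RUNX letters TGTGGT, present in 12.95% of members, 7.90% of flank windows and 11.3% of optimal sites, 5.05 points above the flanks (4.69 to 5.41). RUNX factors direct blood, bone and epithelial development. In members with no core within 2 mismatches the letters were in 9.29%, against 7.91% of their flank windows. Where the best core had 2 mismatches, 45.1% of the RUNX matches overlapped it. Of the 1753 members with the core within 1 mismatch and a RUNX match, 136 (7.76%) had a match that overlapped the core. The letters followed the repeats, as they were in 25.1% of members with a masked summit and 9.12% of the others, and in 35.5% of members with the tail. In flank windows they were in 8.83% of masked and 7.60% of unmasked ones.

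SP letters (GGGCGG, the GC box) were in 3.95% of members and 1.91% of flank windows, and in 18.2% of the members at promoters. ETS letters (CCGGAAG) were in 0.889% and 0.391%, with 3.63% at promoters. The E-box CACGTG was in 1.92% and 1.33%. In the optimal list the SP, ETS and E-box letters were in 6.45%, 1.07% and 2.07% of sites, more than in members.

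REST letters (TTCAGCACC), bound by a repressor of neuronal genes, were in 0.221% and 0.105%, and in 0.171% of optimal sites. For AP-1 (TGANTCA), TEAD (CATTCC), CRE (TGACGTCA), CEBP (TTGCGCAA), NFI and NRF1 the difference from the flanks was at most 0.317 points.

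Other letters were rarer than in the flanks. For the letters AGATAA, read by factors of the GATA family, the difference was −2.02 points, and for the CCAAT box −2.04 points. For SOX (ACAATG) it was −0.854 points. For ZNF143 (ACTACAA) it was −0.308 points. In optimal sites the GATA, CCAAT and SOX letters were in 2.60%, 10.2% and 4.21%, fewer than the 3.55%, 10.7% and 4.50% of members. ZNF143 letters were in 1.01% of optimal sites and 0.769% of members.

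The interval included 0 for the FOX letters TGTTTAC, read by factors of lung endoderm, and for the NKX2 letters CACTTGA. It also included 0 for the YY1 letters AAGATGG. From the list of either replicate alone, 7 to 8 motifs were above the flanks.

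Promoters held 4569 members (10.2%, interval 9.93% to 10.5%), counting summits within 1000 bp of the start of a protein-coding transcript. Introns held 50.7% and intergenic sequence 32.0%, with 2.89% in other exons, 2.31% in coding exons and 1.92% in UTRs. The promoter share was 5.82 points above that of the 134247 lower peaks (5.52 to 6.12) and below that of the optimal list by 5.98 points (difference −5.98, bounds −6.38 and −5.58). It was 22.9% with a limit of 5000 bp. Because the rule requires 2000 bp between a member and any listed site, promoters with a listed site can hold no member beside it.

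Promoter members mostly lacked the core. It was in 5.60% of them, in 19.4% of members in introns and in 21.4% of those in intergenic sequence. Only 9.46% of promoter members had a masked summit, and tail-bearing members were at promoters in 1.43% (40 of 2797). Members with 5 or more CpG in the window held the core in 4.26% of 3666, those with fewer in 19.6%. In the optimal list the core was also rarer at promoters, at 20.6% against 52.7% in introns.

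The strongest promoter members were named by their pooled signal. Fras1, an extracellular matrix protein of basement membranes, had a peak of 46.7 (replicate 1, 4.64; replicate 2, 18.2), 404 bp from a start. Msrb1, a methionine sulfoxide reductase, had 41.6 (29.9 and 11.8), and its core had 1 mismatch. Traf1, an adaptor of TNF receptor signalling, had 39.5 (11.7 and 27.5).

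Eif2ak4, the kinase that senses amino acid shortage, had 37.8 (9.23 and 26.7) and no core. Tbx4, a T-box factor of lung mesenchyme and hindlimb, had 36.7 (27.0 and 9.79), 366 bp from a start. Pnrc1, a nuclear receptor coactivator, had 36.4 (28.5 and 8.08). Slc35a1, the Golgi transporter of CMP-sialic acid, had 34.6 (3.81 and 21.1), Sirt1, a protein deacetylase, 34.5 (27.3 and 8.25), Tmem248 34.4 (23.2 and 7.90), and Ift88, a carrier of ciliary transport, 34.2 (10.6 and 20.2). The replicates of each of these 10 were unequal, and neither replicate was always the higher one. Tmem248 was the only 1 of the 10 that also had an optimal site at a promoter.

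Genes of some lung cell types often had a member at a promoter where no optimal site was present. Over 5 lists (alveolar type 1 and type 2 cells, airway, mesenchyme, endothelium), 20 of the 47 genes with no optimal site within 1000 bp of a start had a member there (42.6%, interval 29.5% to 56.7%). Over 4 lists of other tissues (blood and immune cells, neuron, liver, heart and skeletal muscle) it was 2 of 37 (5.41%, 1.495% to 17.7%), and over all protein-coding genes 3220 of 13028 (24.7%). The lung lists together stood 37.1 points above the other lists (19.2 to 51.8) and 17.8 above all genes (4.78 to 32.0). Taken singly, the lists of alveolar type 2 cells (14.3%) and airway (22.2%) were below all protein-coding genes. The lists were joined after their values were seen, and lists of this size give only a description. Lung tissue also holds blood cells, whose list had 0 of 12, with an interval reaching 24.2%.

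This was not particular to the members. The next 44749 peaks were at a promoter of 16 of the 47 lung genes (34.04%), 3 of the 37 others (8.11%) and 14.3% of all genes, whereas the lowest 44749 were at 4 (8.51%), 4 (10.8%) and 8.85%. The median GC content within 500 bp of a start was 54.3% for the lung genes, 52.4% for the others and 51.3% for all genes, and the median number of start sites was 2 in each set.

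**Figure D4:**
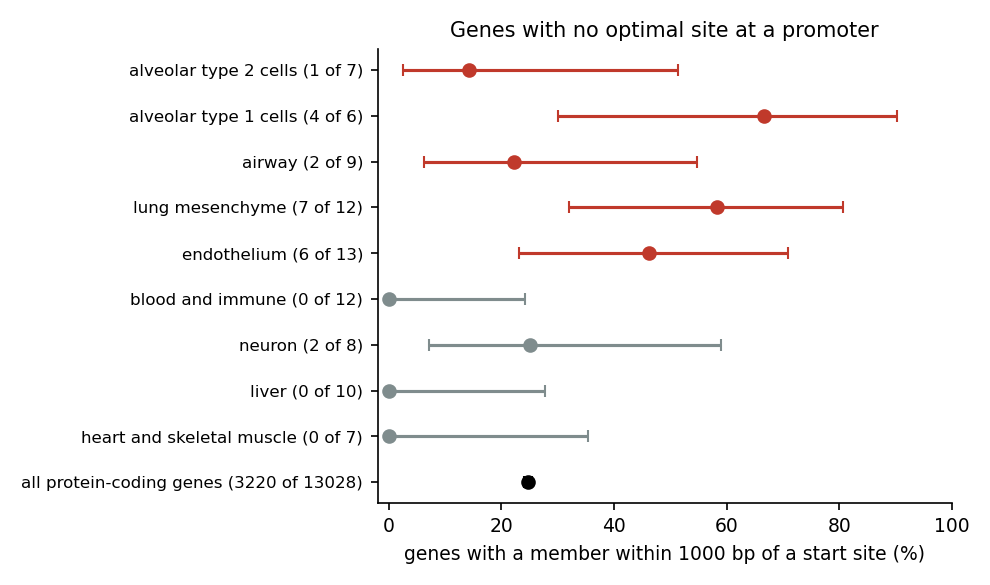
Share of genes with a member within 1000 bp of a start site (percent, 95% Wilson intervals) among genes that had no optimal site there, by gene list with the counts beside each name. Alveolar type 1 (4 of 6), mesenchyme (7 of 12) and endothelium (6 of 13) lie right of all protein-coding genes at 24.7%, with intervals that are wide, and blood, liver and heart are at 0. Airway (2 of 9) and alveolar type 2 cells (1 of 7) lie left of all protein-coding genes.

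By list, mesenchyme had 7 of 12, endothelium 6 of 13, alveolar type 1 cells 4 of 6, airway 2 of 9, alveolar type 2 cells 1 of 7, neuron 2 of 8, and blood, liver and heart 0 of 12, 10 and 7, which allow shares up to 24.2%, 27.8% and 35.4%. Of 16 genes active in most tissues, 12 had an optimal site, and 2 of the other 4 (Ppia and Eef2) had a member. Counts within 25000 bp cover all genes of each list, with or without an optimal site, so they cannot be set against those above. They were 18 of 20 mesenchymal, 14 of 16 endothelial, 12 of 12 alveolar type 1 and 9 of 14 alveolar type 2 genes. Airway had 7 of 11, blood 7 of 14, neuron 8 of 12, liver 6 of 12 and heart 8 of 12. Broadly active genes had 15 of 16, against 67.1% of all protein-coding genes.

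The mesenchymal genes with a promoter member, listed here after their values were seen, included regulators of lung growth. Tbx4 led, as given above. Fgf10, the ligand that drives branching of lung epithelium, had a pooled signal of 22.1 (replicate 1, 4.05; replicate 2, 18.3), 145 bp from a start. Tcf21, a transcription factor of lung fibroblasts, had 13.2 (4.32 and 8.93), 31 bp from a start. Tbx5, the partner of Tbx4 in lung mesenchyme, had 12.9 (7.28 and 4.71), and Meox2, a homeobox factor, 12.7 (8.57 and 6.33). Plin2, a lipid droplet protein of lipofibroblasts, had 10.8 with a peak in replicate 1 only, and Acta2, smooth muscle actin, 9.32 with a peak in replicate 2 only. The core within 1 mismatch was in none of these 7 peaks, and in only 5.60% of all promoter members.

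Among the endothelial genes, Vwf, the clotting factor stored by endothelial cells, had 28.9, with 24.4 in replicate 1 and 3.82 in replicate 2. Car4, the carbonic anhydrase of lung capillaries, had 17.8 (8.33 and 7.56), and Prox1, the regulator of lymphatic identity, 14.9 (7.44 and 6.13). Sox17, an arterial transcription factor, had 13.1 (3.74 and 6.91). Tek, the angiopoietin receptor, had 11.5 (6.69 and 4.70), with a stronger member of 29.2 (20.9 and 10.5) that held the core, 2656 bp from a start. Cdh5, the cadherin of endothelial junctions, had 10.8 (4.17 and 6.27), 43 bp from a start. All 6 promoter peaks had a partner in both replicates, as did 58.1% of all members. None had the core within 1 mismatch, which was in only 5.60% of all promoter members.

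In the epithelium, Sftpc, surfactant protein C of alveolar type 2 cells, had a peak of 11.004 (7.89 and 4.16), 63 bp from a start. Scgb1a1, the secretory protein of club cells, had 12.4, seen in replicate 2 only (10.3), 58 bp from a start. Krt5, the keratin of basal cells, had 9.70 and Aqp5, the water channel of alveolar type 1 cells, 9.70, both with a peak in replicate 1 only. Akap5 (12.2) and Gprc5a (9.63) were seen in replicate 1 only as well, and Igfbp2, a binding protein of insulin-like growth factors, had 10.1 (5.66 and 3.33). Abca3, the lipid transporter of lamellar bodies, had a member of 22.1 (13.3 and 8.07) and an optimal site besides. The neuronal genes with a member and no optimal site were Tubb3 (13.2) and Syp (10.6).

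Counted over whole gene bodies, Notch1 stood out among genes of 50 kb or more, a ranking made after the values were seen. Its 58.761 kb held 16 members and 5 optimal sites, 27.2 members per 100 kb against a median of 2.10 over 5000 such genes. Bcl2l1, an inhibitor of apoptosis, held 11 members and 3 optimal sites in 51.061 kb. Itpkb, a kinase of inositol phosphates, held 18 members, Wasf2, an actin regulator, 13, and Smad3, the effector of TGF-beta signalling, 16 members with 6 optimal sites in 111.228 kb. Smad3 was picked from further down the ranking, at 14.4 members per 100 kb. Ptk7, Maco1, Cttnbp2nl, Shb and Rab8b ranked above it, at 16.9 to 14.5.

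Both replicates had a peak within 100 bp of the summit for 25990 members (58.1%), replicate 1 alone for 10145 (22.7%), replicate 2 alone for 7990 (17.9%) and neither for 624 (1.39%). In the optimal list both had one at 97.5% of sites. Members rebuilt by the same rule from 1 replicate's own list had a peak in both at 36.9% (replicate 2 list) and 37.3% (replicate 1 list). The share with a peak in both replicates rose with signal, from 31.8% in the lowest of the 10 signal groups to 91.1% in the highest. Where both had a peak, their values lay further apart at higher signal, with a median absolute log2 ratio of 0.430 below 12 and 0.927 between 25 and 30. The core was in 21.3% of members seen in both replicates, 14.6% and 14.3% of those seen in 1, and 8.49% of those seen in neither. It was 7.06 points more common in the first kind than in all others (6.35 to 7.76). The rule used the replicates, and these kinds also differed in pooled signal, with medians of 13.3, 10.8, 10.8 and 10.2 in that order. The part of signal in this difference was not tested.

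Members with 2 high and similar replicate values were nearly missing, which follows from a rule that leaves out listed sites. Of the 25990 members with both, 499 had at least 9 in the lower replicate, and 135 of these (27.1%) had replicates within 0.5 on the log2 scale. In the optimal list, whose signals were mostly far higher, 57812 sites had at least 9 in the lower replicate, 84.3% of them within 0.5. The lowest optimal group stood closer to members when no limit was set on the lower replicate. Its median absolute log2 ratio was 0.470, against 0.548 in members and 0.208 in the whole optimal list. Absolute log2 ratios over 1 made up 17.4%, 17.8% and 5.44% in that order. Replicate 1 was the higher one at 55.6% of the members and 63.5% of the optimal sites. The limits of 9 and 0.5 were chosen after seeing the plot of replicate signals.

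**Figure D5:**
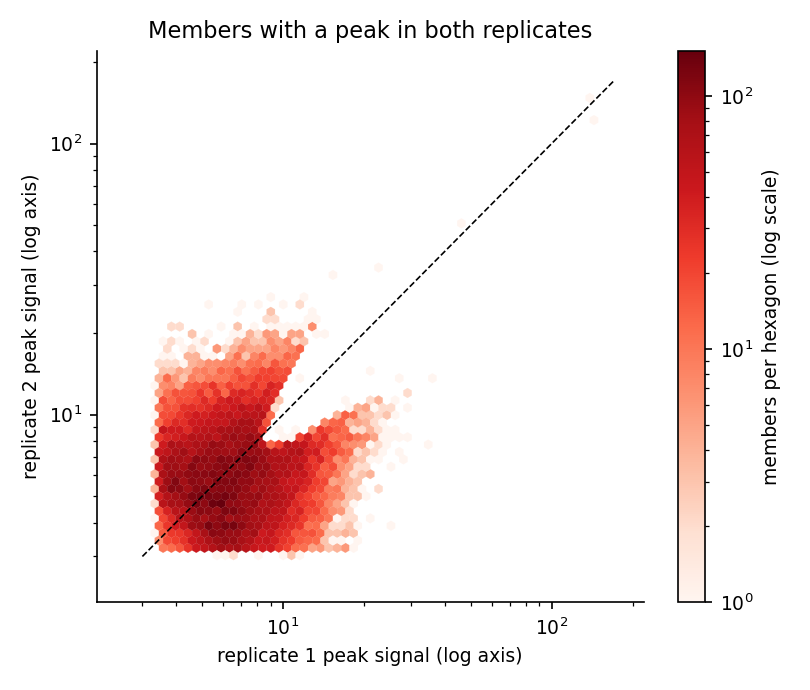
Replicate 1 against replicate 2 peak signal (log axes) for the 25990 members with a peak in both replicates, with colour for the number of members per hexagon on a log scale. The dashed line marks equal signals; the area along it above about 9 in both replicates is nearly empty, and the isolated points at the upper right are among the members of highest signal.

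The 2 strongest members were exceptions. The peak at chr1:195241478-195241689 had a signal of 283, with 139.6 in replicate 1 and 143 in replicate 2. The one at chr19:61199435-61199660 had 263, with 144 and 121. Both would rank with the strongest optimal group, whose lowest signal was 208, and both are absent from the IDR lists. Whether the IDR threshold or another filter left them out is not known from the sources used here. They lie 230282 and 231906 bp from the end of their chromosomes, and aligned at their cores they share 94.1% of the bases within 50 bp, and 63.9% and 46.5% in windows of 501 and 1001 bp. They were also the only members not 280 bp wide. Whether reads of one were placed at the other was not tested.

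The median distance to the nearest listed site was 8946 bp, by the rule at least 2001, and 53.9% were within 10 kb. It was 10218 bp for the next 44749 peaks and 12579 bp for the lowest. Over 2516 bins of 1 Mb the number of members had a Spearman rho of 0.920 with the number of optimal sites and 0.882 with GC content, and optimal sites had 0.898 with GC content, a description over bins that share the same libraries and base composition. Of 6272 member cores with an optimal core within 50000 bp, 3181 (50.7%, interval 49.5% to 52.0%) were on the same strand as the nearest one, 25.2% faced it and 24.1% pointed away from it.

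The X chromosome had few members, and those more often held the core. It had 750, or 4.39 per Mb, against a median of 18.1 (13.4 to 26.7) over autosomes, and 0.501 members per optimal site against 0.640 to 0.803. The core was in 28.5% of members on X (25.4% to 31.9%) and 18.2% of those on autosomes. With unmasked summits only it was 20.5% (17.4% to 24.1%) and 11.4%, and the tail was in 6.80% and 6.24% of members. Promoters held 16.0% of members on X and 10.1% on autosomes. The sex of the animals is not given, so the number of X copies behind these values is unknown.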

How the data were processed

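The authors deposited peak lists on mm10 for each replicate, for both pooled, and 2 IDR-thresholded lists, per the labels and file headers. The signal of each peak (column 7) and the −log10 of its q-value (column 9) are as the authors deposited them. The summit is an offset in bp that the authors deposited in column 10. No label or header read here names the aligner, the peak caller, the scaling of the signal or the cutoff of the IDR filter, so these are not given in the sources used. The lists carry no read counts, so depth is unknown, and signals were used only to rank and describe peaks.

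The members and lists were chosen with earlier results of these data known. Peaks on chromosomes 1 to 19 and X were used, and no sequence or gene on chromosome 18 is described. The reference was GRCm38.p6 (the assembly of mm10; RefSeq sequence with its soft masking) with GENCODE M21. Windows were 101 bp. The promoter, the motif letters and the replicate partner (100 bp) were searched as stated with each result. Named were the 10 strongest members and promoter genes, the 8 strongest with an exact core or none, those at the limit, and the strongest of each class and list, not all of which are printed. No comparison between conditions was possible and no test was run: shares have 95% Wilson intervals and differences 95% Newcombe intervals. Same-signal ranges, the tail, the joined lists, gene bodies, CpG split and replicate limits were chosen after values were seen. Alternatives were other separations, shares kept, thinning, each replicate alone, mismatch limits, windows, a position weight matrix and distance limits. Functions were tested on simulated data with Python 3.11.15, numpy 2.4.6, pandas 2.3.3 and scipy 1.17.1.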

Additional observations from a re-analysis of the deposited data

How the results depend on the processing

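No paired analysis was possible because there is only 1 group of 2 replicates. Shares and distances were compared with the SD between member lists rebuilt from each replicate alone, a narrow spread, and counts of motifs and genes with the main count. The core share of 18.4% was 12.9% to 13.7% from 1 replicate alone. It was 24.9% with the highest 1 in 10 of the peaks kept, 12.6% with 1 in 2 kept, and 21.3% with a peak in both replicates. It was 1.54% with 0 mismatches, 41.7% with up to 2, 12.2% in a window of 51 bp, 22.0% within 100 bp of the summit and 21.1% by a weight matrix tested on 24576 members. In the same order of settings (5000 bp separation, 10 kb separation, 1 in 10, 1 in 2, members within 500 bp of a higher one dropped, both replicates), other shares were as follows. Promoters (10.2%) had 9.41%, 8.50%, 11.98%, 7.95%, 9.80% and 9.48%, with 9.15% to 9.33% from 1 replicate, 7.69% at 500 bp and 22.9% at 5000 bp. A peak in both replicates (58.1%) was found for 56.98%, 54.7%, 78.8%, 35.2%, 58.4% and by construction 100%, with 36.9% to 37.3% from 1 replicate, 44.3% at 50 bp and 68.2% at 200 bp. Soft-masked summits (24.0408%) were unchanged within the spread at 5000 bp and then 23.1%, 25.7%, 22.9%, 24.2% and 25.4%, with 22.5% to 22.7% from 1 replicate and 23.8% of window bases. The masked minus unmasked core difference (28.5 points) was 27.02, 25.2, 34.4, 21.2 and, with both replicates, 30.2, and 20.8 to 21.8 from 1 replicate. The tail (34.4%) followed 32.2%, 29.1%, 33.5%, 35.003% and, with both replicates, 33.9%, and 33.9% to 34.4% from 1 replicate. Position 5 (57.3%) took 55.3%, 52.4%, 57.7% and 56.6%, and 56.02% to 56.5% from 1 replicate. Cores on the same strand (50.7%) were 50.5%, 49.98%, 51.1%, 50.9% and, with both replicates, 51.2%, and 50.2% to 50.3% from 1 replicate. Motifs above the flanks (11) were 7 to 8, and 104 list genes within 25000 bp became 28 at 1000 bp and 54 at 5000 bp, and 104 to 107 from 1 replicate. The median distance (8946 bp) was 9557 bp to the optimal list only, and 9286 to 9568 bp from 1 replicate. The masked minus unmasked difference stayed positive in each setting run for it. The same-strand share fell on either side of 50%. Differences between gene lists, within signal ranges, of X and of single motifs had no alternative. The cause of each shift was not tested beyond the setting itself. Depth is unknown, so what it limits cannot be given.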
